A study of Mus musculus with 2 samples.

Results

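The genes described here are 10 genes of the unfolded protein response. They encode the sensors in the membrane of the endoplasmic reticulum (Ern1, Eif2ak3, Atf6, Atf6b), a transcription factor made downstream of IRE1α (Xbp1), 3 more transcription factors made as membrane proteins of that compartment (Creb3, Creb3l2, Nfe2l1), and 2 proteases that release several of them (Mbtps1, Mbtps2). They were chosen by name, and 10 of 10 were found among the 32285 features of both count tables. The study sequenced RNA of single cells from islets of 12-week-old female C57BL/6 mice. One library came from Spop fl/fl mice, in which the gene of the ubiquitin ligase adaptor SPOP is flanked by loxP sites and which served as control, and the other from SpopβKO mice, with a deletion of Spop in beta cells. With 1 library per genotype there was no replicate, so values are given with intervals that cover counting error only and without a test of the genotype. The driver of the deletion, the deleted exons and the number of mice per library are not given in the sources used here. Both libraries came from islets picked by hand and kept in culture before they were dispersed with trypsin.

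When unfolded protein builds up in the endoplasmic reticulum, IRE1α (encoded by Ern1) cuts a short intron out of Xbp1 mRNA, PERK (Eif2ak3) phosphorylates eIF2α and so favours translation of ATF4, and ATF6 travels to the Golgi. There the site-1 and site-2 proteases (Mbtps1 and Mbtps2) cut it in turn and free a transcription factor that enters the nucleus. The same proteases cut ATF6B and the CREB3 family, whereas NFE2L1 is released by DDI2 and is known for driving proteasome genes. Beta cells make large amounts of proinsulin in this compartment, and PERK loss is known to damage them. Splicing, phosphorylation and cleavage leave no trace in the counts used here, which give only the amount of RNA.

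The intron that IRE1α removes is shown because it marks what these data cannot see. In the longest of the 4 Xbp1 transcripts that GENCODE annotates, the intron, in capitals, lies at positions 815 to 840 of 2129 bases, which is 1289 bases from the 3′ end.
Xbp1: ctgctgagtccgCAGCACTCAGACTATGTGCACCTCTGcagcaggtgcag
The assay captures the 3′ ends of transcripts, and Xbp1 levels below count the spliced and the unspliced form together. The promoters of Creb3l2 and Eif2ak3 are shown because these members had the largest differences between the libraries and between bands of insulin content. Each runs from 250 bases before to 50 after a start site in RefSeq on GRCm38.p6, at chr6:37442099-37442398 on the minus strand and chr6:70844265-70844564 on the plus strand. Capitals mark the CCAAT box, read as CCAAT or, on the other strand, ATTGG.
Creb3l2: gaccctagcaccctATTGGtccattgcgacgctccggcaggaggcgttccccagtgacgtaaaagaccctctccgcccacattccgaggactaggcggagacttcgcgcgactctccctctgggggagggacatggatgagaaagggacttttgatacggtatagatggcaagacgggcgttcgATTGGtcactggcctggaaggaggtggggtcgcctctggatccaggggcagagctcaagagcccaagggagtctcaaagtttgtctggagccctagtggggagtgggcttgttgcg
Eif2ak3: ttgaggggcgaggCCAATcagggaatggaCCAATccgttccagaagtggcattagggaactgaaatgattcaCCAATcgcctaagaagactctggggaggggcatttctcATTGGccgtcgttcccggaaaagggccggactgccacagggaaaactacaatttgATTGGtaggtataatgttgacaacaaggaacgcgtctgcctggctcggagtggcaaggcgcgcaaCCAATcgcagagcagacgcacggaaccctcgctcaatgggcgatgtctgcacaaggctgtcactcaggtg
The Creb3l2 window holds 2 CCAAT boxes and the Eif2ak3 window 6, and 37.4% of 32851 promoters of this length hold at least 1. The endoplasmic reticulum stress element ERSE (CCAAT, 9 bases of any kind, CCACG), which ATF6 binds with the CCAAT factor NF-Y, was searched on both strands and is in 0.119% of all promoters. The related ERSE-II (ATTGG, 1 base, CCACG) is in 0.0365% of them. No match to either was found in the 13 promoters of the 9 members in the table, which says only that these letters are not in those windows. The unfolded protein response element UPRE (TGACGTGG), bound by XBP1 and ATF6, is in 0.676% of all promoters on either strand. Among the members' promoters it is in 1 window of Nfe2l1, chr11:96829919-96830218 on the minus strand, where it reads CCACGTCA, at position −158 relative to the start site. The antioxidant response element (TGACNNNGC), to which NFE2L1 and its relatives bind, is in 12.4% of all promoters and matched in those of Ern1 and Atf6b.

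The Spop fl/fl library held 7768 barcodes with 82541585 UMIs (unique molecular identifiers, each counting 1 captured RNA molecule), and the library labelled SpopβKO held 10033 barcodes with 89977773 UMIs. After barcodes with fewer than 500 genes or more than 15% mitochondrial UMIs were left out, 6850 and 8842 cells remained, with medians of 8870 and 7638.5 UMIs. The libraries shared 21 barcode sequences, 14 of them among the kept cells. Cells were classed by their leading hormone, and insulin was the leading hormone in 3876 and 7052 cells, glucagon in 1745 and 1024 and pancreatic polypeptide (Ppy) in 115 and 106. A further 301 and 365 cells had no clear leader among hormones (mixed) and 806 and 287 had no hormone above 1% of their UMIs. The class is a range and not a cell type: in 709 and 399 cells the leader held between 1% and 2% of UMIs. In glucagon-led cells insulin held a median of 0.285% of UMIs in the Spop fl/fl library and 1.00% in the other. The insulin-led class itself starts at 1%. Somatostatin led in 7 and 8 cells, too few to describe. Summed over 8 beta cell markers, the level in insulin-led cells was 16487 in the Spop fl/fl library and 27640 in the library labelled SpopβKO, against 2337 and 2737 in glucagon-led cells. Levels throughout are UMIs per 1000000 UMIs of genes other than Ins1, Ins2, Gcg, Sst and Ppy, so that the RNA of these genes does not enter the denominator. RNA of other hormone genes, such as Iapp and Pyy, stays in it. Spop itself was at 74.7 in the insulin-led cells of the Spop fl/fl library and at 95.7 in those labelled SpopβKO, a log2 ratio of 0.36 (95% interval 0.29 to 0.42), and in glucagon-led cells it was at 80.5 and 83.2. A 3′ tag can lie outside the deleted part, so this neither checks nor contradicts the deletion, and the genotype below rests on the labels. In insulin-led cells the labelled knockout also had fewer UMIs of 5 heat shock genes (818 against 1339) and more of 6 immediate early genes (726 against 413). It had more of 6 macrophage markers (105 against 13.7, with 3 and 0 of the 6 at a level of 10 or more). The sum of 8 acinar markers was 43.9 against 6.85, with 1 and 0 of the 8 at that level. For 4 markers of pancreatic polypeptide cells other than Ppy it was 1356 against 530 (2 and 1 of the 4 at that level). For 5 ductal markers it was 466 against 274 (2 of the 5 in both). These marker sums thus rest on part of each list. The part of these differences in the results was not tested.

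Insulin-led cells were split at the pooled quartiles of the insulin share of their UMIs, 4.07%, 8.64% and 19.2%, into bands 1 (lowest) to 4 (highest). The Spop fl/fl library put 1361, 745, 848 and 922 cells into these bands and the library labelled SpopβKO 1371, 1987, 1884 and 1810. Band 2 differed most in depth, with median UMIs of 10172 and 3080. In band 1 the summed macrophage markers were at 9.13 and 134 (0 and 5 of the 6 at a level of 10 or more). The mesenchymal ones were at 13.3 and 59.2 (1 of the 5 in both). The beta cell ones were at 15110 and 15568 (8 of the 8 in both). The part of these in the comparisons with band 1 was not tested. The levels by band and hormone class show that the members do not share 1 pattern.

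**Figure D1:**
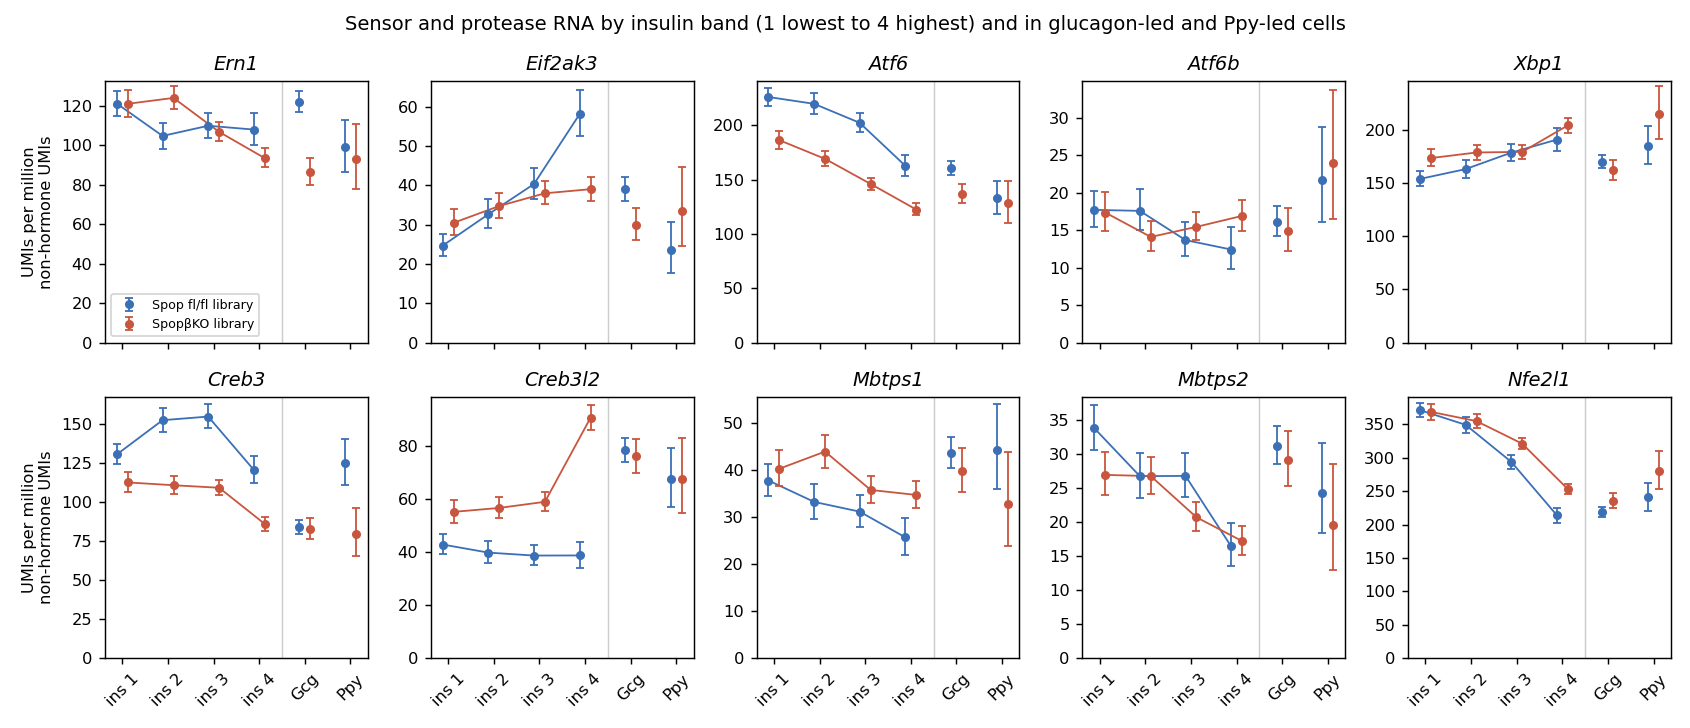
Level of each member (y axis, UMIs per 1000000 non-hormone UMIs, each panel from 0) in insulin bands 1 to 4 (ins 1 to ins 4), glucagon-led cells (Gcg) and Ppy-led cells of the Spop fl/fl library (blue) and the library labelled SpopβKO (red). Bars are 95% Poisson intervals that cover counting error only. Creb3l2 reaches 90.5 in band 4 of the library labelled SpopβKO against 38.7 in the Spop fl/fl library, while Eif2ak3 stands at 39.0 against 58.1 there.

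Ern1 (chr11:106394650-106487852, minus strand, mm10) encodes IRE1α, the most widely conserved of the sensors. In the Spop fl/fl library its level was 121.0, 104.6, 109.8 and 107.9 in bands 1 to 4, 122.0 in glucagon-led and 98.9 in Ppy-led cells. In the library labelled SpopβKO it was 120.9, 123.9, 106.7 and 93.4 in the bands, 86.4 in glucagon-led and 93.04 in Ppy-led cells. Among these 6 classes the glucagon-led level was thus the highest in the Spop fl/fl library and the lowest in the other, although the first overlapped that of band 1 and the second those of Ppy-led cells and band 4. Over all insulin-led cells the levels were 111.8 and 109.9, a log2 ratio of the labelled knockout over control of −0.025 (−0.08 to 0.03). In glucagon-led cells the ratio was −0.50 (−0.63 to −0.37), the largest difference of any member in that class. The median mitochondrial share of glucagon-led cells also differed there, at 3.27% in the Spop fl/fl library and 1.91% in the other.

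Xbp1 (chr11:5520659-5525893, plus strand) encodes the transcription factor whose mRNA IRE1α splices. Its level was higher with more insulin in both libraries, at 153.8, 163.0, 178.5 and 190.8 in bands 1 to 4 of the Spop fl/fl library and 173.4, 178.7, 179.2 and 204.1 in the library labelled SpopβKO. Neighbouring bands overlapped in their intervals, except that band 4 lay above band 3 in the labelled knockout. Glucagon-led cells had 170.0 and 162.0 and Ppy-led cells 185.0 and 215.2. In insulin-led cells as a whole Xbp1 was at 168.9 and 184.8, a log2 ratio of 0.13 (0.09 to 0.17). The ratio was largest in band 1 (0.17) and was 0.0058 in band 3.

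Eif2ak3 (chr6:70844515-70905245, plus strand) encodes PERK. In the Spop fl/fl library its level was 24.7, 32.6, 40.3 and 58.1 in bands 1 to 4, and the order of classes ran from Ppy-led cells (23.5) and band 1, which overlapped, through band 2 to glucagon-led cells (39.0) and band 3, which overlapped, and then to band 4. The interval of band 2 also touched those of Ppy-led and glucagon-led cells. In the library labelled SpopβKO the bands spanned only 30.5, 34.7, 38.0 and 39.0, and neighbouring bands overlapped. Glucagon-led and Ppy-led cells of that library had 29.9 and 33.4. The sums over insulin-led cells hide this, since they were 36.4 and 36.1 (log2 ratio −0.014, −0.11 to 0.08). By band the ratio went from 0.30 (0.08 to 0.53) in band 1 through 0.09 and −0.09 to −0.57 (−0.76 to −0.39) in band 4. In glucagon-led cells it was −0.38 (−0.61 to −0.16).

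Atf6 (chr1:170704674-170867771, minus strand) encodes the founding member of the sensors that are activated by cleavage. Its level was lower with more insulin in both libraries, at 225.9, 219.7, 202.2 and 162.6 in the Spop fl/fl library and 186.2, 169.0, 145.9 and 122.4 in the library labelled SpopβKO. The library labelled SpopβKO was the lower one in all 4 bands, with log2 ratios of −0.28, −0.38, −0.47 and −0.41. Over all insulin-led cells the levels were 207.4 and 152.5, a ratio of −0.44 (−0.49 to −0.40). Glucagon-led cells had 160.3 and 136.9, a ratio of −0.23 (−0.34 to −0.12), and Ppy-led cells had 133.1 and 128.7, which overlapped. Its paralog Atf6b (chr17:34647146-34655074, plus strand), reported as a weaker activator, gave fewer UMIs, 1186 and 1188 over all kept cells. In the Spop fl/fl library Atf6b was at 17.7, 17.6, 13.7 and 12.4 in the bands and at 16.1 in glucagon-led cells, and in the library labelled SpopβKO at 17.3, 14.1, 15.4, 16.9 and 14.9. Ppy-led cells had 21.7 and 24.0. Neighbouring levels overlapped, and over insulin-led cells the libraries were at 15.7 and 15.9.

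Creb3l2 (chr6:37327255-37442146, minus strand) encodes BBF2H7, known for expanding the secretory pathway in cartilage cells. In the Spop fl/fl library it was nearly level over the insulin bands, at 42.8, 39.8, 38.7 and 38.7 with overlapping intervals, and stood at 78.2 in glucagon-led and 67.4 in Ppy-led cells. In the library labelled SpopβKO the bands had 55.1, 56.6, 58.9 and 90.5, and glucagon-led and Ppy-led cells had 76.0 and 67.6. Bands 1 to 3 of that library overlapped, and band 4 lay above them and above the glucagon-led cells. The 2 libraries therefore differed in every insulin band and overlapped in the glucagon-led and Ppy-led cells. The log2 ratios were 0.36 (0.19 to 0.54), 0.51 (0.33 to 0.69), 0.61 (0.44 to 0.78) and 1.22 (1.03 to 1.42) in bands 1 to 4, −0.04 (−0.19 to 0.10) in glucagon-led cells and 0.0037 (−0.38 to 0.39) in Ppy-led cells. Over all insulin-led cells the levels were 40.3 (38.3 to 42.3) from 1576 UMIs and 66.3 (64.2 to 68.4) from 3851 UMIs. Band 4 also differed in other sums between the library labelled SpopβKO and the Spop fl/fl library. The sum was 552 against 204 for 5 ductal markers (2 of the 5 at a level of 10 or more in both). It was 62.6 against 6.81 for 8 acinar markers (1 and 0 of the 8 at that level). For 6 macrophage markers it was 143 against 30.7 (1 of the 6 in both). For 8 beta cell markers it was 45334 against 24621 (8 of the 8 in both). The alpha sum was 481 against 529, but of the 4 measured alpha markers 2 were higher and 2 lower. Endothelial markers summed to 1.26 against 1.82, with 0 of the 4 at a level of 10 or more in either library. Heat shock genes (638 against 1453) were lower. Median mitochondrial shares were 1.95% and 0.82%, and median non-hormone UMIs 7190 and 5246.5. The part of these in the Creb3l2 and Eif2ak3 values of band 4 was not tested.

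Creb3 (chr4:43562332-43567060, plus strand) encodes the family's founding member, also called Luman. In the Spop fl/fl library its level was 130.7, 152.5, 154.8 and 120.7 in bands 1 to 4 and 84.0 in glucagon-led and 125.1 in Ppy-led cells. In the library labelled SpopβKO it was 112.7, 110.9, 109.3 and 86.1 in the bands, 83.1 in glucagon-led and 80.0 in Ppy-led cells. The Spop fl/fl library was thus higher in each insulin band, while the glucagon-led cells of the 2 libraries overlapped. Over all insulin-led cells the levels were 140.8 and 104.0, a log2 ratio of −0.44 (−0.49 to −0.38), against −0.017 (−0.16 to 0.12) in glucagon-led cells. The difference was not limited to insulin-led cells. The ratio was −0.65 (−0.98 to −0.32) in Ppy-led cells and −0.31 (−0.49 to −0.14) in mixed cells. It was −0.47 (−0.67 to −0.28) in cells with no leading hormone. The 3′ end of Creb3 lies within Gba2 on the opposite strand, and as the strand setting of the counting is not given in the sources used here, reads of the 2 genes may not be told apart.

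Mbtps1 (chr8:119508156-119558735, minus strand) encodes the site-1 protease, which makes the first cut in ATF6 and in the sterol regulators SREBP1 and SREBP2. Its level was 37.8, 33.3, 31.2 and 25.7 in bands 1 to 4 of the Spop fl/fl library and 43.7 in glucagon-led and 44.4 in Ppy-led cells. In the library labelled SpopβKO it was 40.3, 43.9, 35.8 and 34.7 in the bands, 39.9 in glucagon-led and 32.7 in Ppy-led cells. Over insulin-led cells it was at 32.9 and 38.3, a log2 ratio of 0.22 (0.12 to 0.32). The site-2 protease gene Mbtps2 (chrX:157535371-157598715, minus strand), whose product makes the second cut inside the membrane, had levels of 33.9, 26.8, 26.8 and 16.5 in the bands of the Spop fl/fl library and 27.0, 26.8, 20.8 and 17.3 in the other. Both libraries thus had the lowest Mbtps2 level of the 4 bands where insulin was highest. Glucagon-led cells had 31.3 and 29.2 and Ppy-led cells 24.4 and 19.6. The log2 ratio of the libraries in insulin-led cells was −0.29 (−0.40 to −0.17), from 27.3 and 22.4. By band the ratio of Mbtps2 was −0.33, 0.00045, −0.37 and 0.07 and that of Mbtps1 0.09, 0.40, 0.20 and 0.43, each short of 1.5-fold. Weighting each cell equally left Mbtps2 at −0.07 over insulin-led cells. The protein-coding gene Yy2 overlaps Mbtps2 on the same strand, though not at its 3′ end. How reads in the overlap were counted is not given in the sources used here.

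Nfe2l1 (chr11:96817414-96829968, minus strand) encodes the proteasome regulator NRF1. It was lower with more insulin in both libraries, at 370.9, 349.0, 293.7 and 213.9 in bands 1 to 4 of the Spop fl/fl library and 368.4, 354.5, 320.8 and 253.0 in the other. Bands 1 and 2 overlapped in both, and bands 3 and 4 stood apart. Glucagon-led cells had 218.8 and 235.2 and Ppy-led cells 240.4 and 279.9. Over insulin-led cells the libraries were at 318.5 and 319.2, a log2 ratio of 0.0033 (−0.03 to 0.04). The libraries overlapped in bands 1 (−0.010) and 2 (0.02), and bands 3 and 4 had ratios of 0.13 (0.06 to 0.19) and 0.24 (0.15 to 0.33).

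Set side by side, 1 of the 10 members, Creb3l2, was at least 1.5-fold higher in the insulin-led cells of the library labelled SpopβKO, and 0 were 1.5-fold lower. Among the 8844 genes with a mean level of at least 10 there, 7.58% were 1.5-fold higher and 2.84% lower, so a count of 1 in 10 is near that background. The members' median log2 ratio was −0.0051 and that of all genes −0.022. Counting intervals lay wholly above 0 for 3 members (Creb3l2, Mbtps1, Xbp1), beside 35.6% of all measured genes, and wholly below 0 for 3 (Atf6, Creb3, Mbtps2), beside 40.9%, so these counts are near the background too. In glucagon-led cells 0 of 10 members reached 1.5-fold, beside 0.743% of 8881 genes higher and 0.833% lower. The members' median there was −0.11 and that of all genes −0.020. Of the members 9 of 10 were below 0, beside 54.2% of all genes, and 3 (Ern1, Eif2ak3, Atf6) had an interval wholly below 0, beside 16.3%. Nfe2l1 was the member above 0, at 0.10 (0.02 to 0.19).

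**Figure D2:**
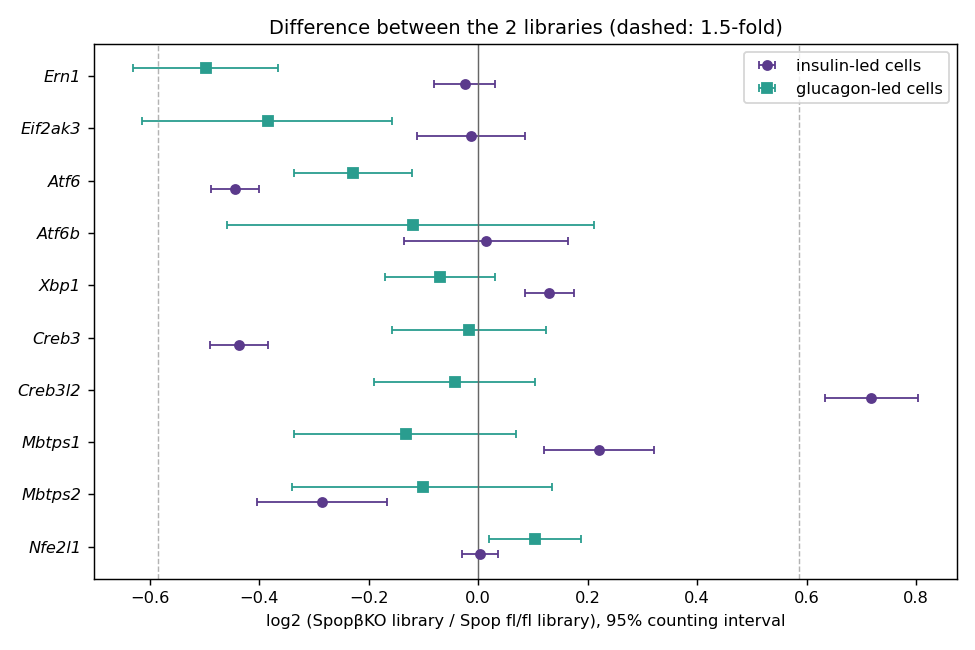
Log2 ratio of each member's level in the library labelled SpopβKO over the Spop fl/fl library (x axis) in insulin-led cells (circles) and glucagon-led cells (squares), with 95% conditional intervals that cover counting error only. Creb3l2 alone lies past the dashed 1.5-fold lines, at 0.72 in insulin-led and −0.04 in glucagon-led cells.

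By band, 0 members passed 1.5-fold in band 1 (3.82% of all genes higher, 1.67% lower) and band 2 (6.52% and 2.2%), and Creb3l2 was the 1 member to do so in band 3 (9.76% higher, 4.48% lower) and band 4 (18% higher, 8.45% lower). The share of all genes past that limit thus also grew with the insulin band. Eif2ak3 in band 4, at 1.49-fold lower in the library labelled SpopβKO, lay just inside the limit, and Creb3l2 in band 3, at 1.52-fold higher, just outside.

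The comparison of band 4 with band 1 asks how a member's RNA goes with the insulin load of the cell, inside each library. Relative to band 1, Mbtps2 was 2.05-fold lower in the Spop fl/fl library and 1.56-fold lower in the library labelled SpopβKO, and it was the 1 member past 1.5-fold in both (with TMM factors between the sums the count was 0, Mbtps2 being at log2 −0.87 and −0.50). Of 8454 genes, 5.19% were lower in both and 1.59% higher in both. Nfe2l1 came close, at 1.73-fold and 1.46-fold lower, and Atf6 at 1.39-fold and 1.52-fold lower. The median gene was itself lower in band 4, by a log2 ratio of −0.19 in the Spop fl/fl library and −0.11 in the other. Relative to that median, Mbtps2 was at −0.85 and −0.53, Nfe2l1 at −0.60 and −0.43 and Xbp1 at 0.50 and 0.35.

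Creb3l2 and Eif2ak3 went apart in this comparison. Eif2ak3 was 2.36-fold higher in band 4 than in band 1 in the Spop fl/fl library (log2 1.24, 1.02 to 1.46) and 1.28-fold higher in the library labelled SpopβKO (0.36, 0.16 to 0.55). Creb3l2 had a log2 ratio of −0.15 (−0.37 to 0.07) in the first and 0.72 (0.58 to 0.86) in the second, where it was 1.64-fold higher. Where insulin UMIs were left in the denominator, the directions changed for Xbp1, to −0.33 and −0.34, and for Eif2ak3 in the library labelled SpopβKO, to −0.21. On that scale Eif2ak3 kept 0.60 in the Spop fl/fl library and Creb3l2 went to −0.78 and 0.14. Weighting each cell equally left Eif2ak3 at 0.0043 in the library labelled SpopβKO.

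**Figure D3:**
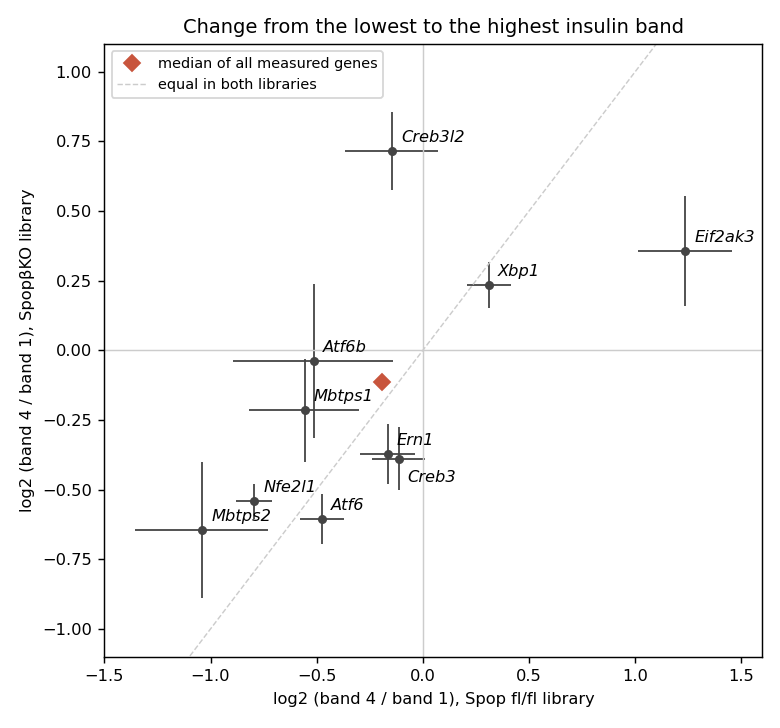
Log2 ratio of insulin band 4 over band 1 for each member in the Spop fl/fl library (x axis) and the library labelled SpopβKO (y axis), with 95% intervals for counting error, and the median of all 8454 measured genes (diamond). Eif2ak3 lies far to the right of the dashed line of equality, Creb3l2 far above it, and Mbtps2, Nfe2l1 and Atf6 lie below 0 on both axes.

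Between insulin-led and glucagon-led cells of the same library, 0 of 10 members passed 1.5-fold in both libraries, where 6.62% of 8697 genes were higher and 4.7% lower in both. In the Spop fl/fl library Creb3 was 1.68-fold higher in insulin-led cells and Creb3l2 1.94-fold lower. In the library labelled SpopβKO these values were 1.25-fold and 1.15-fold. Nfe2l1 was 1.46-fold and 1.36-fold higher in insulin-led cells. Mbtps1 was 1.33-fold and 1.04-fold lower. Ern1 had log2 ratios of −0.13 (−0.20 to −0.05) and 0.35 (0.23 to 0.47), and the first of them became 0.15 where each cell was weighted equally. The medians of all genes were 0.12 and 0.10.

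In the small Ppy-led class, Creb3 was 1.56-fold lower in the library labelled SpopβKO (110 UMIs against 282, log2 ratio −0.65, −0.98 to −0.32), and 1 of 10 members lower stood beside 4.49% of 8749 genes, with 0 higher beside 4.97%. The other 9 did not reach 1.5-fold, and Nfe2l1 was at 0.22 (0.03 to 0.41). Mixed cells had 0 of 10 past the limit, beside 2.33% of genes higher and 1.52% lower, with Creb3l2 at 55.8 and 61.3. In cells with no leading hormone 3 of 10 were 1.5-fold lower, Ern1 (log2 ratio −0.82), Mbtps2 (−0.78) and Atf6 (−0.62), beside 10.8% of 9160 genes, and 0 were higher, beside 9.42%. That group held different cells in the 2 libraries, with summed markers of 315 and 1917 for mesenchymal cells (5 of 5 detected in both), 92.2 and 2061 for acinar cells (8 of 8), 502 and 2022 for macrophages (6 of 6) and 11144 and 6740 for beta cells (8 of 8). The part of these in the 3 differences was not tested.

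The genes on which the members act were taken as lists of commonly described targets. For XBP1 these serve protein entry, folding and degradation in the endoplasmic reticulum. Of 15, 14 were measured in insulin-led cells, 3 were at least 1.5-fold higher in the library labelled SpopβKO and 1 lower, beside 7.58% and 2.84% of all genes, with a median log2 ratio of 0.27. Edem2, a factor of glycoprotein degradation, was at 27.5 and 45.6 (log2 ratio 0.73), the Golgi regulator Arfgap3 at 43.8 and 71.6 (0.71) and the oligosaccharyltransferase subunit Ostc at 169 and 260 (0.62). Dnajb9, a cochaperone of BiP, went the other way, at 352 and 231 (−0.60). In glucagon-led cells 15 were measured, 0 passed 1.5-fold (beside 0.743% of all genes higher and 0.833% lower) and the median was 0.03. In band 4 the counts were 6 higher and 1 lower with a median of 0.53, where 18% of all genes were higher and 8.45% lower. In band 1 they were 2 and 0 with a median of 0.15, beside 3.82% and 1.67%.

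Of 15 genes described as ATF6 targets, mostly chaperones, 14 were measured in insulin-led cells and 0 passed 1.5-fold in either direction, with a median of 0.07. Of all genes there, 7.58% were higher and 2.84% lower. Hspa5, which encodes BiP, was at 2134 and 1589 (log2 ratio −0.43), while the PERK inhibitor gene Dnajc3 was at 283 and 346 (0.29), Hyou1 at 122 and 145 (0.24) and Hsp90b1 at 935 and 1097 (0.23). The list therefore held members on both sides of 0. In band 4 the counts were 2 higher and 0 lower (median 0.08), where 18% of all genes were higher and 8.45% lower. In band 1 they were 0 and 0 (median 0.09), beside 3.82% and 1.67%. Of 14 measured in glucagon-led cells 0 passed, beside 0.743% of all genes higher and 0.833% lower. The median there was 0.18 with 4 of 14 below 0, beside 54.2% of all genes.

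Atf4, Ddit3 (encoding CHOP) and genes described as their targets were the list with the most members past the limit in insulin-led cells. Of 15, 14 were measured and 8 were at least 1.5-fold lower in the library labelled SpopβKO, beside 2.84% of all genes, and 0 higher, with a median of −0.61. Atf3, a stress-induced repressor, was at 123 and 58.2 (log2 ratio −1.08), the amino acid transporter subunit Slc3a2 at 511 and 304 (−0.75), the glutathione-degrading enzyme gene Chac1 at 59.6 and 37.2 (−0.68) and the pseudokinase gene Trib3 at 157 and 98.6 (−0.67). Eif2ak3, which encodes the kinase at the head of this branch, was at 36.4 and 36.1 in the same cells. Those sums hide a difference by band. Eif2ak3 was at 24.7 and 30.5 in band 1 (log2 ratio 0.30) and at 58.1 and 39.0 in band 4 (−0.57). The counts of the list were 0 higher and 0 lower in band 1 (median −0.32), where 3.82% of all genes were higher and 1.67% lower. In band 4 they were 1 higher and 11 lower (median −0.86), where 18% were higher and 8.45% lower. In glucagon-led cells 15 were measured and 0 passed, beside 0.743% of all genes higher and 0.833% lower. The median there was −0.22 with 14 of 15 below 0, beside 54.2% of all genes. Among heat shock genes, which can respond to cell handling, 5 of 5 were 1.5-fold lower in the insulin-led cells of the library labelled SpopβKO, beside the same 2.84%. In the glucagon-led cells 1 of 4 measured was lower, beside 0.833% of all genes. Without cells high in Hspa1a and Hspa1b, 3754 and 7001 insulin-led cells remained, and the count of sensors and proteases past 1.5-fold was 1 as before. The ATF4 and CHOP list and the heat shock genes were not counted again without those cells.

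**Figure D4:**
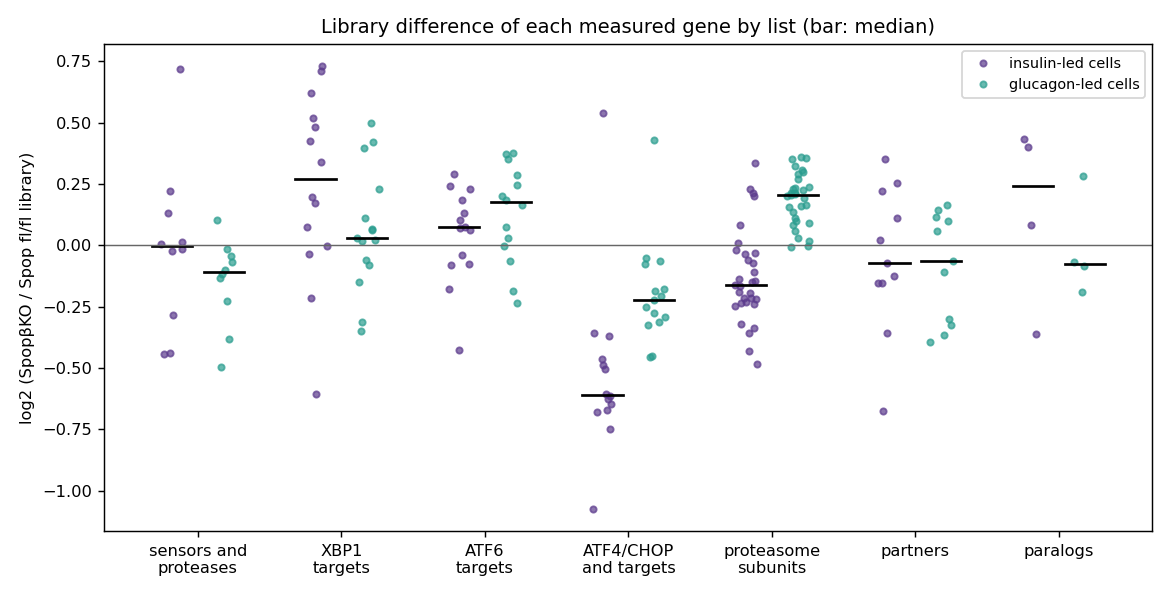
Log2 ratio of the library labelled SpopβKO over the Spop fl/fl library (y axis) for each measured gene (points) of the sensors and proteases and of 6 lists of related genes, in insulin-led cells (purple) and glucagon-led cells (green), with the median of each as a bar. In insulin-led cells the ATF4 and CHOP list has its median at −0.61 and the XBP1 list at 0.27, while the sensors and proteases centre on −0.0051.

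Proteasome subunit genes, the classic targets of NFE2L1, were all measured. In insulin-led cells 0 of 31 passed 1.5-fold, beside 7.58% of all genes higher and 2.84% lower. Of the 31, 25 were below 0 and 6 above it, with a median log2 ratio of −0.16, where 53% of all genes were below 0. Psmc4 was at 108 and 77.3 and Psmd1 at 67.7 and 85.5. In glucagon-led cells 29 of 31 were above 0 and 2 below, beside 54.2% of all genes below 0, and the median was 0.20. Again 0 were past 1.5-fold, beside 0.743% of all genes higher and 0.833% lower. Nfe2l1 itself was at 318.5 and 319.2 in the first class and 218.8 and 235.2 in the second. Of 7 mRNAs described as cut directly by IRE1α, 1 was measured, Hgsnat, at 63.5 and 44.97 (log2 ratio −0.50). Too few of them were measured to describe that branch.

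Of 12 partners of the members 11 were measured in insulin-led cells, and 1 passed 1.5-fold, downward. Of all genes there, 7.58% were higher and 2.84% lower, so a count of 1 in 11 is near that background. The partner past the limit was Ddi2, which encodes the protease that releases NFE2L1, at 115 and 71.7 (log2 ratio −0.68). Scap, the escort that brings the SREBPs to the same 2 proteases, was at 44.0 and 34.3 (−0.36), and Srebf1, encoding one of those substrates, at 19.6 and 24.97 (0.35). Of 9 paralogs and other eIF2α kinases 4 were measured and 0 passed, beside the same shares. The kinase gene Eif2ak2 (PKR) was at 17.4 and 23.5 (0.43), Creb3l1, the closest relative of Creb3l2, at 22.2 and 29.3 (0.40), and Nfe2l2, encoding the oxidative stress regulator NRF2, at 80.9 and 63.0 (−0.36).

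Cells with at least 1 UMI were counted as well. With each insulin-led cell thinned to 3000 non-hormone UMIs, which left out 1014 and 2174 shallower cells, a Creb3l2 UMI was seen in 9.96% (exact binomial 95% interval 8.88 to 11.1) of 2862 cells of the Spop fl/fl library and in 16.5% (15.5 to 17.6) of 4878 cells labelled SpopβKO. For Atf6 the shares were 43.0% (41.2 to 44.8) and 34.6% (33.2 to 35.9), and for Creb3 32.7% (31.0 to 34.5) and 26.1% (24.8 to 27.3). In 1 member, Creb3l2, the interval thus lay higher in the library labelled SpopβKO, beside 21.6% of 8839 genes thinned in the same way, and in 2 it lay lower, beside 20.7%. The intervals of the other 7 members overlapped, from Atf6b at 3.74% and 4.37% to Nfe2l1 at 55.5% and 56.9%. Before thinning, the Creb3l2 shares were 25.4% and 32.7% and the Atf6 shares 64.2% and 53.6%, at median depths of 8856 and 7723 UMIs per cell. A thinned cell showed on average 2.38 and 2.31 of the 10 members, and 6.04% and 6.70% of cells showed none. No class of these cells should lack these genes, so no share from free RNA could be set beside them. In band 4 the Creb3l2 share was 8.61% (6.70 to 10.9) and 20.3% (18.4 to 22.4), against 10.1% and 15.1% in band 1. For Eif2ak3 it was 18.3% (15.6 to 21.3) and 10.9% (9.47 to 12.6) in band 4, against 8.50% and 8.33% in band 1.

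The levels over 12 sums (4 insulin bands, glucagon-led and Ppy-led cells in each library) also show which members vary alike. These correlations of log2(level + 1) are descriptions, since the sums share 2 libraries and their composition. Creb3l2 ran opposite to Creb3 (r = −0.86) and to Atf6 (r = −0.81), and Xbp1 opposite to Mbtps2 (r = −0.84), while Atf6 and Creb3 ran together (r = 0.76). Among 6038 genes the ones most like Creb3l2 were Pak3 (r = 0.97), Rrbp1 (0.96), which encodes a ribosome-binding protein of the rough endoplasmic reticulum, and Gnai1 (0.96). Those most like Eif2ak3 were Xpa, Zfp9 and Rap1b (0.92, 0.92 and 0.91), and those most like Xbp1 were Ddx47, Dnajc3 and Khk (0.86, 0.86 and 0.83). Atf6 was nearest to Cdc42se2 (0.99), Atf6b to Scamp2 (0.89) and Pdia4 (0.88), Creb3 to Dus1l (0.98) and Nfe2l1 to Rbm28 (0.97). Ern1, Mbtps1 and Mbtps2 were nearest to Igsf9b (0.84), Pogz (0.91) and Nup210 (0.95). With 6038 genes and 12 sums, high values of r are easily found.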

How the data were processed

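Per the labels' protocols, dispersed islet cells passed dead-cell and debris removal and were captured with 10x Genomics 3′ chemistry, in 1 library per genotype. The authors deposited unnormalized counts of UMIs for each gene in each barcode, made with Cell Ranger 6.0.0 per the file headers. Per the submitters' processing notes the build was mm10, and R 4.1.1 and Seurat 4.1.0 were used. The strand and intron settings and the rule that called cells are not given in the sources used here.

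The members and gene lists were chosen with earlier results of these data known. Cells had at least 500 genes and at most 15% mitochondrial UMIs. A leading hormone was the largest of Ins1 plus Ins2, Gcg, Sst and Ppy, at 1% or more of UMIs and 2 times the next. Fewer than 50 cells formed no class. UMIs were summed per class and library, with exact Poisson intervals for levels, exact conditional intervals for ratios and Clopper-Pearson intervals for shares, all at 95% and for counting error only. No test was made, since cells are not replicates. A gene was measured at a mean level of at least 10, and 1.5-fold was the limit of size. Named genes were all 10 members, Spop, up to 4 per list by size of the ratio in insulin-led cells with an interval excluding 0, and the 3 most alike genes per member with a mean level of at least 25. Ddit3 was taken by its Ensembl identifier. Doublets were not called, and an alternative left out the 5% of cells with most UMIs. Positions are from GENCODE M21 on mm10. Promoters are from RefSeq on GRCm38.p6, where 9 of 10 members matched. Alternatives changed the denominator, scaling, weighting, filters, hormone gates and bands. The levels and intervals were checked on simulated counts. Sums and intervals used pandas 2.3.3 and scipy 1.17.1 in Python 3.11.15, with numpy 2.4.6, and figures used matplotlib 3.10.9.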

Additional observations from a re-analysis of the deposited data

Results flagged for a closer look

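In 4 of the 10 members the library difference pointed in opposite directions in different classes of cells (the 4 insulin bands and the glucagon-led, Ppy-led, mixed and no-hormone cells), with counting intervals that excluded 0 on both sides. The same held for 31.2% of the 7845 genes measured in all 8 classes, so 4 of 10 is near that background. These opposite signs were not tested, since each genotype had 1 library. Ern1 had a log2 ratio of the library labelled SpopβKO over the Spop fl/fl library of 0.24 in insulin band 2 and of −0.82 in cells with no leading hormone. Band 2 is also where the libraries differed most in depth, with median UMIs of 10172 and 3080 per cell, and the part of this was not tested. Eif2ak3 had 0.30 in insulin band 1 and −0.57 in band 4. Atf6b had 0.45 in band 4, from 82 and 268 UMIs, and −0.32 in band 2, from 169 and 199 UMIs. Nfe2l1 had 0.24 in band 4 and −0.26 in cells with no leading hormone. That last class held different cells in the 2 libraries, with summed acinar markers of 92.2 and 2061, and the part of this was not tested.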

How the results depend on the processing

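Of 70 values of the summary results under the alternatives, 64 stayed within a tolerance of the main value and 6 moved out of it. A count stayed if it was equal or, where above 0, within 1.5-fold. The median log2 ratio stayed if it changed by no more than a width taken from the members' counting intervals. The count of members past 1.5-fold between libraries was 1 in insulin-led cells, Creb3l2, and 0 in glucagon-led cells under each alternative run. The log2 ratio of Creb3l2 in insulin-led cells ranged from 0.66 (all UMIs as denominator) to 0.92 (only cells with 5000 to 20000 UMIs). The 6 that moved were all the count of members past 1.5-fold between insulin bands 4 and 1 in both libraries, which was 1. It became 7 with all UMIs as the denominator, 0 with TMM factors, 2 with each cell weighted equally, 2 with at least 1000 genes, 3 with only cells of 5000 to 20000 UMIs and 2 without the 5% of cells with most UMIs. With all UMIs as the denominator the ratio of band 4 over band 1 is shifted downward by the same amount for each gene of a library, by construction, although Eif2ak3 in the Spop fl/fl library (0.60) and Creb3l2 in the library labelled SpopβKO (0.14) stayed above 0. For the others the cause was not tested. Of 810 values of single members 710 stayed inside the counting interval of the main value and 100 moved out of it, and 0 called values changed sign. The equal weighting of the 4 insulin bands was added after seeing the data. No paired analysis was possible because each genotype has 1 library, and for the same reason no replicate could be left out. Depth limits Atf6b, with the fewest UMIs of the members, and the Ppy-led class most. The log2 ratio of Atf6b had an interval of −0.54 to 0.81 in Ppy-led cells and of −0.13 to 0.16 over insulin-led cells.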
